A study of Mus musculus with 6 samples.

Results

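The 10 genes followed here in mouse lung centre on the transcription factor NRF2. They were chosen by name, and the list holds the gene of the factor itself (Nfe2l2), genes it is known to switch on (Gclc, Gclm, Slc7a11, Txnrd1, Srxn1, G6pdx and Hmox1) and the antioxidant enzymes Cat and Sod3. All 10 have a row among the 21900 genes of the deposited RNA-seq table, and all 10 had a mean over the libraries above the filter on low values, 0.5 CPM (reads per 1000000 reads assigned to genes). The study asked what loss of Cyp1b1, a P450 enzyme acting on steroids, retinoids and polycyclic hydrocarbons, does to the lung of mice on a western diet. The 6 lungs comprise 3 labelled Cyp1b1 KO (2 females and 1 male) and 3 labelled Wild Type (2 females and 1 male), and both groups had been on the high fat diet for 10 weeks. No lung from mice on another diet was analysed here, and the sources used here state no age, strain or knockout allele.

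NRF2 is held in the cytoplasm by KEAP1, which has it degraded. When oxidants or electrophiles modify KEAP1, NRF2 enters the nucleus, pairs with small MAF proteins and binds antioxidant response elements, short DNA motifs near genes for glutathione synthesis, thioredoxin recycling, NADPH supply and haem breakdown. In the lung these enzymes are known for their part in the defence against inhaled oxidants and in the handling of polycyclic hydrocarbons.

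Depth lay between 20.2 and 27.6 M assigned reads per library (M, 1000000 reads), read from the step between low CPM values, so even the lowest member, Slc7a11, rested on 69 to 774 reads per library. Cyp1b1 itself was higher in the libraries labelled knockout, at 51.2, 56.1 and 48.4 CPM, against 12.5, 19.0 and 18.5 CPM in those labelled wild type (log2 difference 1.63, SE 0.18, limma adjusted p = 0.0588, and 0.0197 to 0.683 over the alternatives). The direction is opposite to a loss of Cyp1b1 RNA in the labelled knockout. Exchanged labels and an allele that leaves a transcript cannot be told apart here. Every direction given for genotype thus rests on the labels, and the lungs are called labelled knockout (KO-labelled) and labelled wild type (WT-labelled). Libraries are numbered within a label, and number 3 is the male of each. Since the labels name no animal, the p-values set each difference against the spread of these libraries, not against a known spread between animals. Lung markers were high in all 6 libraries, with summed alveolar type 2 markers at 14656 to 19544 CPM in the libraries labelled knockout and 16113 to 20628 CPM in those labelled wild type, and no marker of the lung cell lists at 0 throughout. The 2 males stood apart in blood and immune markers. The sum of 9 neutrophil markers was 6304 CPM in the KO-labelled male and 357 CPM in the WT-labelled male, against 198 to 270 CPM in the females. The sum of 7 erythroid markers was 5913 CPM in the KO-labelled male and 2770 CPM in the WT-labelled male, against 852 to 1609 CPM in the females.

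The 10 genes were all read in every library, but at very different levels once divided by exon length. Sod3 was the highest at a mean of 123 CPM per kb of merged exon (SD 22.2, n = 6 libraries), Cat stood at 110.1 (SD 9.76), Hmox1 at 87.6 (SD 33.3), Nfe2l2 at 57.3 (SD 8.86) and Gclc at 53.8 (SD 9.02). All of these stood at percentile 95.3 or above among the 17352 genes ranked by level per kb. G6pdx at 17.6, Srxn1 at 14.8, Txnrd1 at 14.6 and Gclm at 12.9 CPM per kb formed a middle group at percentiles 76.1 to 82.6. Slc7a11 was the lowest at 0.651 CPM per kb, percentile 13.1. Only the steps from Gclc to G6pdx (3.06-fold) and from Gclm to Slc7a11 (19.8-fold) separated neighbours in all 6 libraries without overlap of their ranges. Every other pair of neighbours overlapped, and Srxn1 and Txnrd1 changed places in 3 of 6 libraries.

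**Figure D1:**
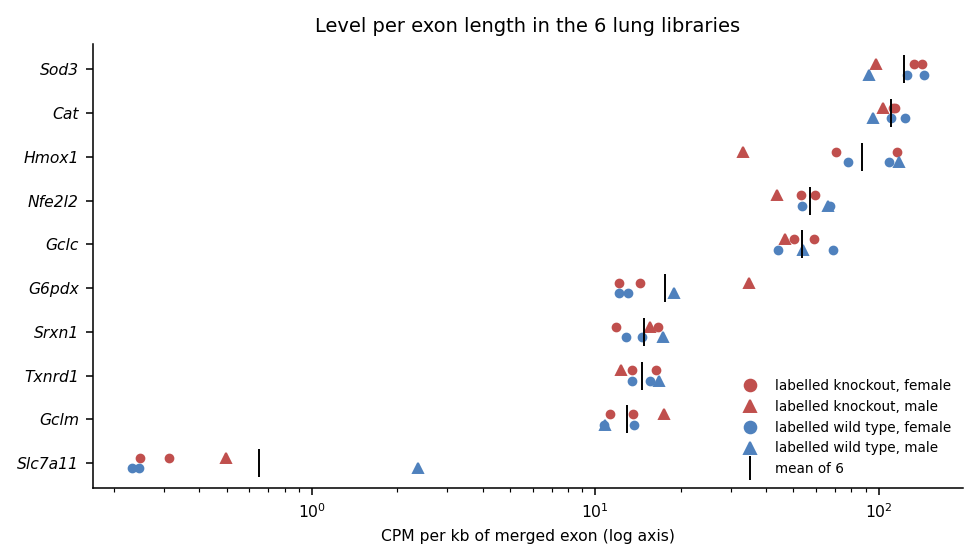
Level of each of the 10 genes per kb of merged exon (log axis), with a point for each library, red for labelled knockout and blue for labelled wild type, circles for females and triangles for males, and a black bar for the mean of 6. Slc7a11 lies apart at the low end with a mean of 0.651 CPM per kb, and Sod3, Cat and Hmox1 lead at 123, 110.1 and 87.6 CPM per kb.

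Between the genotype labels, none of the 10 genes passed the test. The test was limma over all 17382 genes that passed the filter, with sex as a further term and a threshold of 0.05 on the adjusted p. The adjusted p-values of the 10 ran from 0.775 to 0.987, and 0 of 10 had an unadjusted p under 0.05, where 5.13% of all genes did and 0.0115% passed after adjustment. The log2 differences, labelled knockout minus labelled wild type on the log2(CPM + 0.5) scale, ran from -0.63 (Hmox1) to 0.34 (G6pdx), with a median of -0.05 over the 10 and -0.06 over all genes. For all 10 genes the values of the labels overlapped, where 9.52% of all genes were without overlap. Among the 4 females alone, each of the 10 differences lay between -0.09 (Nfe2l2) and 0.19 (Slc7a11). In bulk lung, fewer cells of a type and less RNA per cell cannot be told apart.

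**Figure D2:**
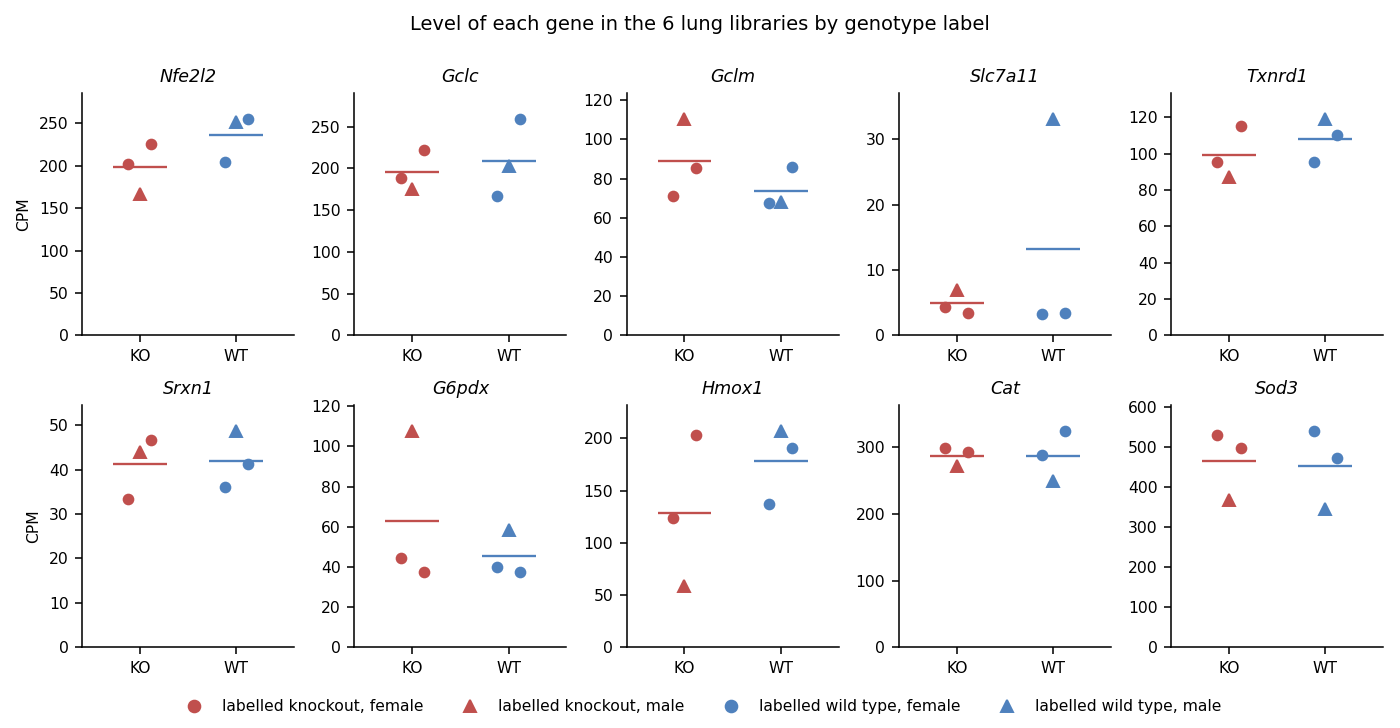
CPM of each gene in the 3 libraries labelled knockout (left, red) and the 3 labelled wild type (right, blue), circles for females, triangles for males and bars for the mean of 3. Circles of both colours lie at like heights in each panel, while triangles lie apart for Slc7a11 (33.0 CPM in the WT-labelled male), Hmox1 (58.2 CPM in the KO-labelled male) and G6pdx (107.6 CPM in the KO-labelled male).

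Nfe2l2 (ENSMUSG00000015839, mm10 chromosome 2, 75675513 to 75704641, minus strand) encodes NRF2, whose activity is set mostly by protein stability, so its RNA level is no measure of that activity. It was at 202, 226 and 166 CPM in labelled knockout 1, 2 and 3, against 204, 255 and 251 CPM in labelled wild type 1, 2 and 3. The KO-labelled male was the lowest library, and the other five overlapped between labels. The log2 difference was -0.26 (SE 0.14, 95% interval -0.59 to 0.07, limma adjusted p = 0.775).

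Glutathione synthesis is represented by both subunits of glutamate-cysteine ligase, the rate-limiting enzyme, and by the transporter that brings in cystine. Gclc, the catalytic subunit (ENSMUSG00000032350, chromosome 9, 77754535 to 77794485, plus strand), had 189, 222 and 176 CPM in labelled knockout 1, 2 and 3, against 166, 259 and 203 CPM in labelled wild type 1, 2 and 3. Both the highest and the lowest Gclc value belonged to WT-labelled females, so the labels fully overlapped (log2 difference -0.08, SE 0.17, limma adjusted p = 0.910). Gclm, the modifier subunit that raises the activity of the ligase (ENSMUSG00000028124, chromosome 3, 122245557 to 122270732, plus strand), had 70.8, 85.3 and 110.2 CPM in labelled knockout 1, 2 and 3, against 67.5, 86.0 and 67.9 CPM in labelled wild type 1, 2 and 3. Its highest value was in the KO-labelled male and the log2 difference was 0.25 (SE 0.17, limma adjusted p = 0.775). The ratio of Gclm to Gclc, taken per kb within each library, was 0.376 in the KO-labelled male and 0.225 and 0.230 in the females of that label, against 0.243, 0.199 and 0.200 in labelled wild type 1, 2 and 3. Merged exons of Gclm share 4.71% of their bases with Gm17494, a gene on the other strand at 26.1 CPM. Strand use is not given in the sources used here, and reads from the shared part cannot be assigned.

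Slc7a11, the cystine-glutamate exchanger (ENSMUSG00000027737, chromosome 3, 49892526 to 50443614, minus strand), was the most uneven of the 10. It was at 4.35, 3.43 and 6.94 CPM in labelled knockout 1, 2 and 3, against 3.22, 3.41 and 33.0 CPM in labelled wild type 1, 2 and 3. The 4 females lay within 3.22 to 4.35 CPM, and the WT-labelled male stood at 9.96 times the mean of the females of its label, while the KO-labelled male stood at 1.78 times that of its own. Over all 6 libraries the genotype difference was -0.59 (SE 0.45, limma adjusted p = 0.776), and in the 4 females alone it had the other sign, 0.19. The difference between labels was not the same in males as in females by the interaction term (log2 -2.37, SE 0.45, limma adjusted p = 0.0349). Slc7a11 was the 1 of 10 that passed this test, where 2.54% of all genes did, 1.84% in the same direction. An unadjusted p under 0.05 was found for 4 of 10 and for 17.9% of all genes. With 1 male per label the term sets 2 lungs against the spread of the females, and it missed the threshold without labelled wild type 1 (adjusted p = 0.0518), labelled wild type 2 (0.0511) or labelled knockout 1 (0.0899), under quantile normalization (0.0577) and with no filter (0.176).

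Promoter sequence is shown for the 4 members whose RefSeq window (250 bases before to 50 after an annotated start, GRCm38.p6) held a searched motif outside every GENCODE M21 exon, since the 10 genes were grouped by a shared regulator but did not share a pattern over the libraries. Of the 10, 7 have windows, 9 in all because Txnrd1 has 3 starts; Gclc, Hmox1 and Sod3 have none. The core of the antioxidant response element, TGACNNNGC on either strand, was in 5 of 9 member windows, in 1 each of Nfe2l2, Gclm, Txnrd1, Srxn1 and G6pdx, and in 12.4% of the 32851 windows of all genes. TGAGTCA, the core shared by AP-1 and NF-E2 sites, was in 1 of 9 (Srxn1) and in 5.2% of all windows. TGATGCAA, an element bound by ATF4, which mediates the response to amino acid shortage, was in 1 of 9 (Slc7a11) and in 0.895% of all windows. No pair of these motifs overlapped in the windows of the members. Such matches are descriptions of letters, not shown binding. In the 2 stretches of the glutathione genes, each read 5′ to 3′ on the strand of the gene, capitals mark the matches. In Gclm (chr3:122245373-122245481, plus strand) the antioxidant element lies on the other strand, its first base as printed 134 bases before the start, and in Slc7a11 (chr3:50443615-50443729, minus strand) ATF4 elements begin 66 bases (same strand) and 47 bases (other strand) before the start.
Gclm: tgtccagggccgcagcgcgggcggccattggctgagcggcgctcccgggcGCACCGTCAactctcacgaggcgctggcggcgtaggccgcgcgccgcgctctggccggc
Slc7a11: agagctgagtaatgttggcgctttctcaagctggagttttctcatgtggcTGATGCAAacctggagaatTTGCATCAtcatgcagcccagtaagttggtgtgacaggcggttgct

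Thioredoxin recycling and peroxiredoxin repair are represented by Txnrd1 and Srxn1, and neither passed any of the 3 tests. Txnrd1, the cytosolic thioredoxin reductase that uses NADPH to keep thioredoxin reduced (ENSMUSG00000020250, chromosome 10, 82833951 to 82897712, plus strand), had 95.3, 115.5 and 87.4 CPM in labelled knockout 1, 2 and 3, against 95.3, 110.1 and 119 CPM in labelled wild type 1, 2 and 3. The males held both ends of the range, the WT-labelled male the highest and the KO-labelled male the lowest (log2 difference between labels -0.12, SE 0.14, limma adjusted p = 0.833). Srxn1, sulfiredoxin, which reduces over-oxidised peroxiredoxins (ENSMUSG00000032802, chromosome 2, 152105516 to 152111376, plus strand), had 33.3, 46.8 and 44.0 CPM in labelled knockout 1, 2 and 3, against 36.1, 41.3 and 48.7 CPM in labelled wild type 1, 2 and 3. Its values interleave between the labels (log2 difference -0.03, SE 0.15, 95% interval -0.38 to 0.33, limma adjusted p = 0.969).

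The stretches of Txnrd1 (chr10:82859064-82859172, plus strand) and Srxn1 (chr2:152105372-152105515, plus strand) are shown because they hold different motifs. In Txnrd1 the capitals mark an antioxidant element on the other strand, 92 bases before the second of its 3 starts. In Srxn1 they mark TGAGTCA, 102 and 45 bases before the start. The antioxidant element of Srxn1 lies in transcribed sequence and is not shown.
Txnrd1: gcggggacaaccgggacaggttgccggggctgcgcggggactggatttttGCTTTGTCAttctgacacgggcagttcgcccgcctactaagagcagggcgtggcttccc
Srxn1: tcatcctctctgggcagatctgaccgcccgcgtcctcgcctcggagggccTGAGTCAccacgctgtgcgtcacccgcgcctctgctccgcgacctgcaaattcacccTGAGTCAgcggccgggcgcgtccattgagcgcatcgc

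G6pdx, the X-linked enzyme that makes NADPH in the first step of the pentose phosphate pathway (ENSMUSG00000031400, chromosome X, 74409483 to 74429194, minus strand), had 44.4, 37.3 and 107.6 CPM in labelled knockout 1, 2 and 3, against 40.0, 37.2 and 58.3 CPM in labelled wild type 1, 2 and 3. Both males lay above all 4 females, the KO-labelled male at 2.63 times and the WT-labelled male at 1.51 times the mean of the females of the same label. The difference of males against females was 0.99 on the log2 scale (SE 0.19, limma adjusted p = 0.0594), outside the threshold. The genotype difference was 0.34 (SE 0.18, limma adjusted p = 0.775) and was 0.08 in the 4 females. Its exons share 13.6% of their bases with Ikbkg, on the other strand at 62.8 CPM, so part of its reads cannot be assigned. The pentose phosphate enzyme Pgd, which makes NADPH after G6pdx, was picked outside the naming rule. It was at 125, 127 and 204 CPM in labelled knockout 1, 2 and 3, against 115, 129 and 151 CPM in labelled wild type 1, 2 and 3. Of the 10 rows of NADPH supply, the KO-labelled male was the highest library for 6 and the lowest for 2, Pgls (40.9 CPM) and Idh2 (81.4 CPM).

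Hmox1, haem oxygenase 1, which breaks haem down to biliverdin, iron and carbon monoxide (ENSMUSG00000005413, chromosome 8, 75093621 to 75100589, plus strand), had 124, 203 and 58.2 CPM in labelled knockout 1, 2 and 3, against 137, 191 and 207 CPM in labelled wild type 1, 2 and 3. The KO-labelled male was the lowest and the WT-labelled male the highest library. Their ratio was 0.282. The females of both labels covered like spans, with 124 and 203 CPM in labelled knockout against 137 and 191 CPM in labelled wild type. The genotype difference over all libraries was -0.63 (SE 0.36, 95% interval -1.45 to 0.20, limma adjusted p = 0.775), and in the 4 females it was -0.03. The interaction with sex was -1.79 (SE 0.40, limma adjusted p = 0.0620), outside the threshold, and it passed under median centring (0.0390), without labelled knockout 1 (0.0159) and without labelled wild type 2 (0.0428). Hmox1 had the widest spread among the females of the 10 genes, a coefficient of variation of 24.1%.

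Cat and Sod3 remove hydrogen peroxide and extracellular superoxide, and neither passed the test between the labels. Cat, catalase (ENSMUSG00000027187, chromosome 2, 103453849 to 103485160, minus strand), had 299, 292 and 272 CPM in labelled knockout 1, 2 and 3, against 289, 324 and 249 CPM in labelled wild type 1, 2 and 3. Its means were 288 ± 14.5 and 288 ± 37.6 CPM (SD, n = 3 each) for labelled knockout and labelled wild type, with a 95% interval of the log2 difference of -0.23 to 0.25 (limma adjusted p = 0.987). Sod3, the superoxide dismutase secreted into the matrix of vessels and airways (ENSMUSG00000072941, chromosome 5, 52363791 to 52371418, plus strand), had 529.9, 497 and 366 CPM in labelled knockout 1, 2 and 3, against 538, 471 and 346 CPM in labelled wild type 1, 2 and 3. The 95% interval of its genotype difference was -0.21 to 0.30 (limma adjusted p = 0.926). In both genes the males lay below all females. For Sod3 the males differed from the females by -0.51 (SE 0.12, limma adjusted p = 0.0995) and for Cat by -0.21 (SE 0.11, limma adjusted p = 0.421). The summed level of 6 smooth muscle markers, none at 0, was 951 CPM in the KO-labelled male and 871 CPM in the WT-labelled male. The females had 1108 to 1630 CPM. Among the females this sum was lowest in labelled wild type 1, where Sod3 was highest. It was highest in labelled wild type 2, where Sod3 was lowest. The sums of alveolar type 2, alveolar type 1, club, ciliated and fibroblast markers were also lower in both males than in all females. The part of these cell types in the Sod3 values was not tested.

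By sex, 0 of 10 passed limma (3 of 10 had an unadjusted p under 0.05, where 0.834% of all genes passed, 0.627% higher and 0.207% lower in males, and 15.3% had such a p). Both males lay above all females for 2 of the 10 (Slc7a11 and G6pdx), where 9.28% of all genes did, and below them for 2 (Cat and Sod3), where 14.7% did. The KO-labelled male was the lowest library for 3 of the 10 (Nfe2l2, Txnrd1 and Hmox1), against 37.5% of all genes, and the highest for 2 (Gclm and G6pdx), against 17.6%. The WT-labelled male was the highest for 4 (Slc7a11, Txnrd1, Srxn1 and Hmox1), against 25.7%, and the lowest for 2 (Cat and Sod3), against 18%. Sex cannot be told apart from other differences shared by these 2 lungs.

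**Figure D3:**
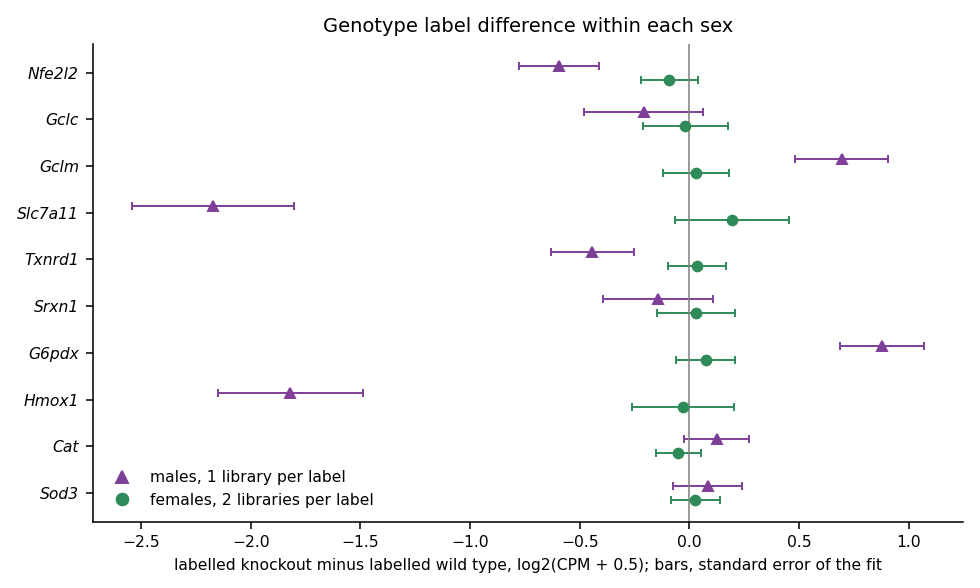
Log2 difference, labelled knockout minus labelled wild type, fitted within males (purple triangles, 1 library per label) and within females (green circles, 2 per label), with bars for the standard error of the interaction fit, which takes the spread of the females for the single males. Circles stay between -0.09 and 0.19 for all 10 genes, while triangles reach -2.17 for Slc7a11, -1.82 for Hmox1, -0.59 for Nfe2l2, 0.69 for Gclm and 0.88 for G6pdx.

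The 10 genes differed in which library was the highest or the lowest. Of the 12911 genes with a mean of at least 5 CPM, those most like a member by Pearson correlation of log2(CPM + 0.5) over the 6 libraries were found for each, as a description. All genes of a library share its depth and its mix of cells, and with 6 libraries a high coefficient is common: the best match of each of the 10 was at 0.986 or above. For Slc7a11 the nearest were Ppt1 (0.995), a lysosomal thioesterase, Cd68 (0.995), a macrophage glycoprotein, and Nos2 (0.994), the inducible nitric oxide synthase. Nos2 was at 9.32, 6.63 and 14.03 CPM in labelled knockout 1, 2 and 3, against 7.20, 8.46 and 119.9 CPM in labelled wild type 1, 2 and 3, so it shared with Slc7a11 the 1 high library. Cd68 was at 89.4 CPM there and between 22.7 and 34.2 CPM in the other five. The sum of 10 alveolar macrophage markers was 275, 294 and 471 CPM in labelled knockout 1, 2 and 3, against 503.9, 454 and 494 CPM in labelled wild type 1, 2 and 3. Chil3 alone made up 58.4, 64.5 and 231 CPM of that sum in labelled knockout 1, 2 and 3. In labelled wild type 1, 2 and 3 it made up 279, 224 and 238 CPM. Of the 10 markers, 2, Fabp4 and Atp6v0d2, were highest in the WT-labelled male. The sum of 5 monocyte markers was 344 CPM in the KO-labelled male and 287 CPM in the WT-labelled male, against 83.5 to 125 CPM in the females, and 2 of the 5, Ccr2 and Plac8, were highest in the WT-labelled male. The part of macrophages and monocytes in the Slc7a11 values was not tested.

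For Hmox1 the nearest were Fam3a (0.998), 2410002F23Rik (0.995) and Dnajb1 (0.994), a heat shock co-chaperone. Dnajb1 was at 107 and 184 CPM in the KO-labelled females and 57.7 CPM in the KO-labelled male, against 113 and 162 CPM in the WT-labelled females and 183 CPM in the WT-labelled male. For G6pdx the 3 nearest included Gpi1 (0.997), the glycolytic enzyme that shares its substrate, and Alas2 (0.996), the erythroid enzyme of haem synthesis. Alas2 reached 95.9 CPM in the KO-labelled male and 30.1 CPM in the WT-labelled male, against 9.64 to 13.9 CPM in the females. The erythroid and neutrophil sums were high in the same KO-labelled male, and their part in the G6pdx and Hmox1 values was not tested.

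**Figure D4:**
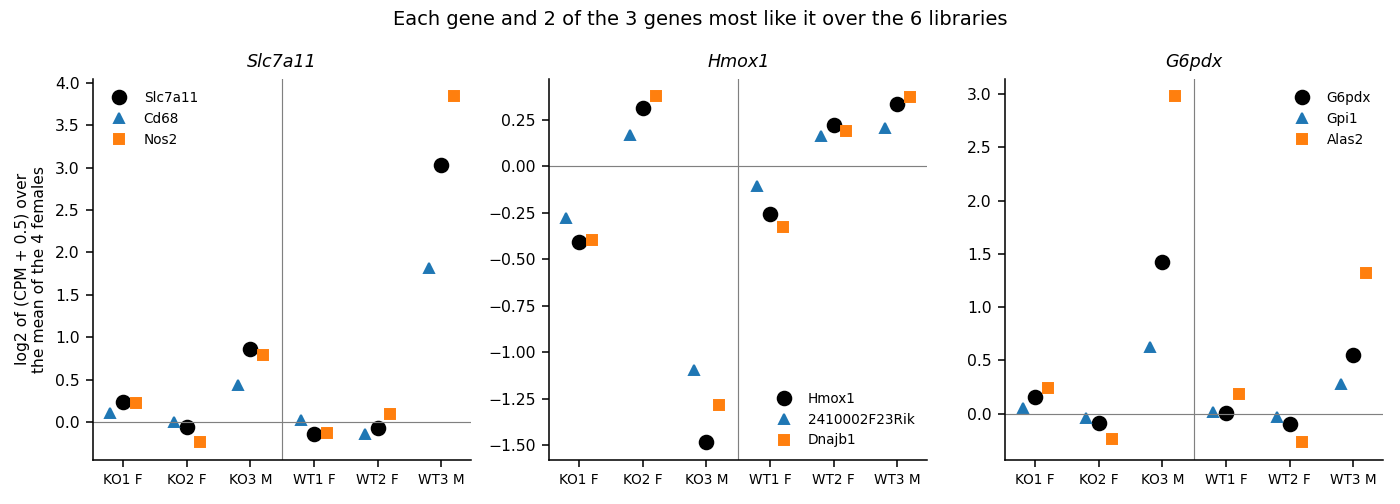
Log2 of CPM + 0.5 over the mean of the 4 females for Slc7a11, Hmox1 and G6pdx (black circles) and 2 of the 3 genes most like each, ranks 2 and 3 (coloured symbols), in the 3 libraries labelled knockout (left) and the 3 labelled wild type (right), F and M giving sex. Slc7a11 and its neighbours are high in the WT-labelled male, Hmox1 and its neighbours are low in the KO-labelled male, and G6pdx and its neighbours are high in that same male.

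The other genes of the pathway, 8 lists with 89 genes, were tested for the genotype label in the same fit. None of the 89 rows found passed limma. An unadjusted p under 0.05 was found for 8 of 89 (8.99%, with Nnt counted for both of its rows), beside 5.13% of all genes, and the median log2 difference was -0.01, beside -0.06 over all genes (Duox1 was not analysed here, and Nnt has 2 rows). Among 14 regulators of NRF2 the smallest p-values belonged to Gsk3b, a kinase that marks NRF2 for degradation, and Keap1. Keap1 was at 65.2, 74.7 and 63.5 CPM in labelled knockout 1, 2 and 3, against 73.3, 74.3 and 88.0 CPM in labelled wild type 1, 2 and 3 (limma adjusted p = 0.775). Gsk3b averaged 164 ± 25.2 CPM in labelled knockout and 140.01 ± 6.62 CPM in labelled wild type lungs (SD, n = 3 each). Among 13 further targets of NRF2, Osgin1, an oxidative stress-induced growth inhibitor, was at 87.2, 129 and 60.5 CPM in labelled knockout 1, 2 and 3, against 110.2, 150.1 and 123 CPM in labelled wild type 1, 2 and 3 (log2 difference -0.52, limma adjusted p = 0.775). Abcc4, an exporter of organic anions, averaged 22.6 ± 5.60 CPM in labelled knockout and 18.5 ± 3.08 CPM in labelled wild type lungs (SD, n = 3 each). Nqo1, the quinone reductase most often used as a marker of NRF2 activity, was chosen after its values were seen and was low throughout, at 3.49, 4.86 and 4.09 CPM in labelled knockout 1, 2 and 3, against 3.89, 6.53 and 4.87 CPM in labelled wild type 1, 2 and 3.

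Of the 17 other glutathione genes, Ggct, which degrades gamma-glutamyl peptides, averaged 4.61 ± 1.26 CPM in labelled knockout and 7.94 ± 2.30 CPM in labelled wild type lungs, and Gpx2, a glutathione peroxidase of epithelia, 29.9 ± 1.33 and 24.2 ± 1.603 CPM (SD, n = 3 each). Of 14 thioredoxin and peroxiredoxin genes, Prdx1 averaged 243 ± 39.9 CPM in labelled knockout and 286 ± 30.4 CPM in labelled wild type lungs, and the stress-induced Sesn2 averaged 30.2 ± 4.74 and 25.9 ± 1.90 CPM (SD, n = 3 each). In 9 of these 14 the KO-labelled male was the lowest library, beside 37.5% of all genes, and 4 of 14 had an unadjusted interaction p under 0.05, beside 17.9%. In the other lists the KO-labelled male was lowest for 4 of 14 regulators, 5 of 17 glutathione genes and 5 of 13 further targets. It was lowest for 3 of 9 haem and iron genes, 2 of 10 NADPH rows, 1 of 9 oxidase genes and 2 of 3 dismutase and chaperone genes. The mitochondrial dismutase Sod2 was at 114, 119 and 116 CPM in labelled knockout 1, 2 and 3, against 125, 137 and 170.0 CPM in labelled wild type 1, 2 and 3. Ccs, the copper chaperone of Sod1, was at 13.2, 12.7 and 10.6 CPM in labelled knockout 1, 2 and 3, against 17.5, 16.2 and 15.2 CPM in labelled wild type 1, 2 and 3. For Sod2, Ccs and Gpx2 the values of the labels did not overlap, where 9.52% of all genes were without overlap. Their log2 differences were -0.29, -0.41 and 0.30, and none passed (limma adjusted p = 0.775 each). Elsewhere in the pathway lists, Fth1 was lower and Prdx3, Tkt, Tfrc and Nnt were higher in labelled knockout without overlap. In the remaining rows of the 89 the labels overlapped.

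In the list of NADPH supply, Nnt stood apart. It encodes the mitochondrial transhydrogenase that makes NADPH from NADH, and as background the C57BL/6J strain is known to carry a deletion in it. The sources used here state no strain for either label, and the part of strain in the Nnt values was not tested. The table has 2 rows for Nnt at the same place on chromosome 13 (minus strand), ENSMUSG00000025453 from 119335448 to 119408997 and ENSMUSG00000116207 from 119335528 to 119408952. All exon bases of the second lie in the first, so the rows share reads and are not separate evidence. ENSMUSG00000025453 was at 33.1, 24.1 and 28.7 CPM in labelled knockout 1, 2 and 3, against 14.1, 12.3 and 12.7 CPM in labelled wild type 1, 2 and 3. ENSMUSG00000116207 was at 29.4, 29.5 and 44.0 CPM in labelled knockout 1, 2 and 3, against 10.1, 16.8 and 10.7 CPM in labelled wild type 1, 2 and 3. In both rows the 3 values of labelled knockout lay above the 3 of labelled wild type, in either sex. The labels did not overlap for 9.52% of all genes. The log2 differences were 1.09 (SE 0.17, limma adjusted p = 0.282) and 1.43 (SE 0.24, limma adjusted p = 0.343), outside the threshold (0.206 to 0.900 and 0.124 to 0.900 over the alternatives), and they kept their sign in all 15 alternatives each (0.97 to 1.23 and 1.14 to 1.71).

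**Figure D5:**
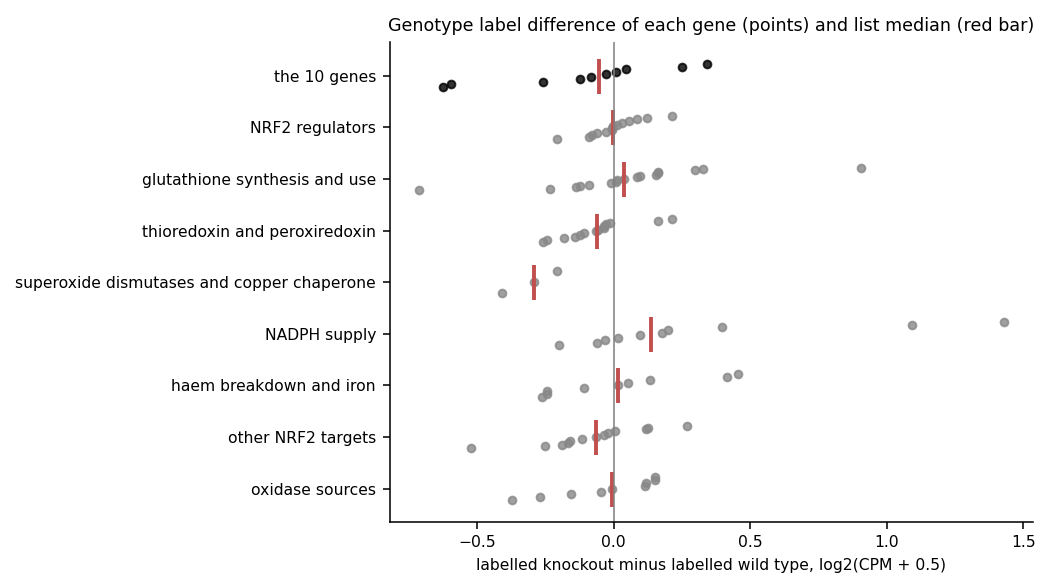
Log2 difference, labelled knockout minus labelled wild type, for the 10 genes (black points) and for the genes of the 8 pathway lists (grey points), with a red bar for the median of each list. The medians lie between -0.29 for superoxide dismutases with their copper chaperone and 0.14 for NADPH supply, with -0.05 for the 10 genes. In NADPH supply the 2 rows of Nnt at 1.09 and 1.43 lie far right.

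By sex, 5 of the 89 pathway rows passed limma, all higher in males, where 0.627% of all genes passed in that direction. All 5 were among the 9 oxidase genes measured, the enzymes that make superoxide rather than remove it. Cybb, the catalytic subunit of the phagocyte oxidase, was at 254 CPM in the KO-labelled male and 385 CPM in the WT-labelled male, against 72.5 to 109.8 CPM in the females (log2 difference, males minus females, 1.78, limma adjusted p = 0.0205). Its partners Ncf1 and Ncf4 rose by 1.75 (limma adjusted p = 0.00394) and 1.79 (0.0285) in the males, and Xdh, xanthine dehydrogenase, by 0.93 (0.0263), Xdh being named after its values were seen. The monocyte markers given beside Slc7a11, with none of the 5 at 0, were also higher in both males, and their part in these values was not tested. Only 1 pathway gene passed without labelled knockout 2 and 2 passed without labelled knockout 1, while 8 passed without labelled knockout 3 and 13 without labelled wild type 3.

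By the interaction of genotype label and sex, 2 of the 89 passed, where 0.702% of all genes passed in the same direction. For both, the difference labelled knockout minus labelled wild type was higher in males than in females. Slc40a1, the iron exporter ferroportin, known to serve the release of iron freed by haem oxygenase, was at 15.01, 12.9 and 40.5 CPM in labelled knockout 1, 2 and 3, against 15.4, 13.8 and 14.001 CPM in labelled wild type 1, 2 and 3 (log2 1.56, SE 0.31, limma adjusted p = 0.0420). In the KO-labelled male Slc40a1 was thus the highest of the 6 and Hmox1 the lowest. Nox4, a constitutively active oxidase that makes hydrogen peroxide, named after its values were seen, was at 113 CPM in the KO-labelled male and 60.5 CPM in the WT-labelled male, against 61.5 to 85.5 CPM in the females (log2 1.16, SE 0.23, limma adjusted p = 0.0374). Slc40a1 missed the threshold without labelled knockout 1 (adjusted p = 0.0832), labelled knockout 2 (0.113) or labelled wild type 1 (0.0602), and with no filter (0.178). Nox4 missed it without labelled knockout 1 (0.108) or labelled wild type 1 (0.0532), and with no filter (0.198).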

How the data were processed

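RNA-seq of 6 mouse lung libraries was analysed from 1 table of CPM values per gene, deposited by the authors. Each column sums to 1000000 as rounded, and the authors' table adds 0.0001 to every value, which was subtracted. Per the submitters' processing notes the build was mm10 and the tools TopHat2 and Partek, with no versions or roles. The sources used here state no annotation, filter or strand setting. Of values worth up to 100 reads, 82.2% to 83.4% per library were whole multiples of the smallest step within 0.05, which is too few to recover reads, and no count test was made.

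Differences came from limma 3.58.1 in R 4.3.3 with a trend in the prior variance. Values were log2(CPM + 0.5), terms were sex and genotype label, and the 17382 genes averaging 0.5 CPM or more entered. The interaction came from a second model. Tests were two-sided, with Benjamini-Hochberg adjustment over all genes tested. Adding 0.5 CPM understates changes of low genes such as Slc7a11. Positions, exon lengths and overlaps came from GENCODE M21 (same build), which holds 21846 of the gene identifiers. Promoter windows came from RefSeq. The fits were also run on simulated data, with the same spread setting for all genes and no library of another cell mix. That run cannot speak for sex or interaction terms that rest on 1 male per label. Python 3.11.15, pandas 2.3.3 and matplotlib 3.10.9 read tables and drew figures.

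The members, pathway lists and marker lists were chosen with earlier results of these data known. Named were all members, Cyp1b1 and, per pathway list, up to 4 genes past a test or else the 2 of smallest genotype p. Pgd, Pgls, Idh2, other genes listed only for label overlap or an extreme library, and those said to be named after their values were seen fall outside this rule. Some genes that the rules name are not reported here. Alternatives were quantile normalization, median centring, pseudocounts of 0.1 and 1 CPM, no filter or a mean of at least 1 CPM, robust moderation, no sex term, the 4 females alone, and each library left out in turn.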

Additional observations from a re-analysis of the deposited data

Results flagged for a closer look

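The difference between genotype labels differed between males and females, by limma's interaction term, for Slc7a11 (log2 -2.37), Slc40a1 (1.56) and Nox4 (1.16). Each rests on 1 male per label set against the spread of the females. Within the 4 females, no library of any of the 10 genes stood outside the others by Dixon's 95% criterion. The nearest was Slc7a11 with a gap of 0.813 of the range, labelled knockout 1 being the highest of the females.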

How the results depend on the processing

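No paired analysis was possible because the labels give no replicate numbers, and the numbers used here only name the libraries. None of the 10 genes passed limma's test between the genotype labels in any of 150 gene-by-alternative fits, and 345 of 390 fits of the 10 genes over the 3 comparisons kept their direction and side of the threshold. The causes of the following shifts were not tested. Over all genes, 2 passed for genotype, against 6 under quantile normalization, median centring, no filter or robust moderation each, and 7 in the 4 females alone. For sex, 1 of the 10 passed under robust moderation (G6pdx, adjusted p = 0.0474 by limma). For the interaction, 0 of all genes passed with no filter, against 441. Of the 10 genes, 0 passed the interaction under quantile normalization or with no filter, and 2 under median centring, while of the pathway genes 5 passed under median centring, 4 under robust moderation and 0 with no filter.

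Some small differences changed sign. In the 4 females alone, the genotype difference was 0.19 for Slc7a11, 0.034 for Txnrd1, 0.031 for Srxn1, -0.050 for Cat, -0.065 for Slc40a1 and 0.062 for Cybb. Under median centring it was 0.022 for Gclc and 0.075 for Srxn1, and under quantile normalization 0.023 for Srxn1 and -0.014 for Cat. Median centring gave 0.026 for Txnrd1 by sex and 0.036 for Gclc and 0.050 for Srxn1 in the interaction, and quantile normalization gave -0.00092 for Sod3 in the interaction. These scalings moved the median genotype difference of all genes to 0.0471 (median centring) and 0.00898 (quantile), against -0.0561.

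With 1 library left out, the genes passing ranged from 1 to 4 for genotype, from 21 to 840 for sex and from 230 to 577 for the interaction. Of the 10 genes, 0 to 2 passed for sex and 0 to 1 for the interaction, and of the pathway genes 1 to 13 and 0 to 3. Without labelled wild type 3, G6pdx (log2 1.39, limma adjusted p = 0.00501) and Hmox1 (-1.44, 0.0317) passed for sex, and without labelled knockout 3, Slc7a11 did (3.14, 0.00175). Genotype differences ranged from -0.28 to 0.082 for Gclc, -0.91 to 0.19 for Slc7a11, -0.25 to 0.034 for Txnrd1, -0.18 to 0.093 for Srxn1, -0.050 to 0.072 for Cat, -0.0041 to 0.11 for Sod3, -0.065 to 0.67 for Slc40a1, -0.11 to 0.37 for Ncf4 and -0.39 to 0.062 for Cybb. Sex differences ranged from -0.36 to 0.14 for Nfe2l2, -0.16 to 0.50 for Gclm, -0.26 to 0.21 for Txnrd1 and -1.44 to 0.35 for Hmox1. Interactions ranged from -0.51 to 0.13 for Gclc, -0.42 to 0.066 for Srxn1 and -0.040 to 0.15 for Sod3. The interaction could not be fitted without either male. With 69 to 97 reads of Slc7a11 in each female, counting error limits its small differences there.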

Other observations

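Of the 17 other glutathione genes, the KO-labelled male was the highest library for 7 and the lowest for 5, and of the 10 rows of NADPH supply for 6 and 2, where it was the highest for 17.6% and the lowest for 37.5% of all genes. The 3 glutathione genes with values here were picked, after their values were seen, from the 7 at their highest in that male, while Gpx7, Gpx8, Glrx2, Slc3a2 and Ggct were at their lowest in it. Ggt1, which starts the breakdown of extracellular glutathione, was at 2.42, 0.979 and 16.8 CPM in labelled knockout 1, 2 and 3, against 1.13, 2.03 and 2.26 CPM in labelled wild type 1, 2 and 3 (interaction with sex 2.62 on the log2 scale, limma adjusted p = 0.114). Glrx, the cytosolic glutaredoxin, was at 34.9, 31.6 and 84.1 CPM in labelled knockout 1, 2 and 3, against 36.3, 40.3 and 45.2 CPM in labelled wild type (limma adjusted p = 0.0502 for the interaction). Gsr, glutathione reductase, was at 72.0, 81.6 and 140.1 CPM in labelled knockout 1, 2 and 3, against 82.1, 70.1 and 102 CPM in labelled wild type. None of these passed the test. The neutrophil marker S100a8 was at 1467 CPM in the KO-labelled male and at most 54.2 CPM in the other five, and its part in these values was not tested.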
